A study of Mus musculus with 12 samples.

Results

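Bile duct cells (cholangiocytes) make up a small share of the liver, line the ducts that carry bile, and are known for keratins, adhesion proteins and secreted proteins that most liver cells make little of. The 10 genes described here are Krt7, Krt8, Krt18, Krt19, Krt23, Sox9, Spp1, Epcam, Cldn4 and Tff3. They were chosen by name, as markers of bile duct cells and keratins of simple epithelia, with earlier results of these data known. On the array, 12 probe sets carried exactly 1 of these symbols, of 22626 probe sets tested, and they measured 9 of the 10 genes among 12393 genes in all. Krt8 had 3 probe sets, Sox9 had 2 and the other 7 genes had 1 each. No probe set carried the symbol of Spp1, which encodes osteopontin, so Spp1 is not analysed here.

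The RNA came from whole liver of 12 C57Bl/6J mice aged 6 to 8 weeks, with 1 Affymetrix array per animal and 3 animals in each of 4 groups. The groups were Aag knock-out mice given methyl methanesulfonate (MMS) and Aag knock-out mice without it, then wild-type mice given MMS and wild-type mice without it. MMS, an agent that methylates DNA, was injected into the peritoneum at 75 mg/kg and the livers were taken 6 hours later. Aag, also named Mpg, encodes the DNA glycosylase that removes alkylated bases at the first step of base excision repair. The labels state neither how the allele was made nor whether the mice called untreated here were injected. Of 2 Mpg probe sets, 1 read 4.95 to 5.75 on the log2 scale in the 6 knock-out livers and 6.21 to 6.94 in the 6 wild-type livers, without overlap, whereas the other read 7.36 to 8.18 in knock-out livers and 7.84 to 8.498 in wild-type livers, with overlap.

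Keratins assemble into intermediate filaments as pairs of 1 type I and 1 type II protein. Krt8 (type II) and Krt18 (type I) form the filament pair of hepatocytes and also of bile duct cells, whereas Krt7 (type II) and Krt19 (type I) are added in the bile ducts of the adult liver. Sox9 is a transcription factor of bile duct development that also marks progenitor cells and some hepatocytes next to the portal tract. Epcam and Cldn4 act at contacts between epithelial cells, and Tff3 encodes a small trefoil peptide secreted together with mucins. In whole liver these transcripts mix with a large excess of hepatocyte RNA. Fewer cells of a type and less RNA per cell cannot be told apart in such samples.

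The genes lie on 4 chromosomes in the RefSeq annotation of GRCm38.p6. Krt7 (101412403 to 101427806), Krt8 (101996711 to 102004342) and Krt18 (102028216 to 102032026) lie on chromosome 15, where Krt8 and Krt18 are neighbouring protein-coding genes. Krt19 (100140810 to 100145926), Krt23 (99477973 to 99493120) and Sox9 (112782210 to 112787757) lie on chromosome 11. Epcam (87635979 to 87651127) and Tff3 (31125306 to 31129611) lie on chromosome 17, and Cldn4 (134945123 to 134946934) lies on chromosome 5.

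The promoters of Krt8 and Krt18 are shown because these 2 genes encode the partners of 1 filament, lie side by side and are transcribed from opposite strands, while after MMS the Krt18 values of treated and untreated livers did not overlap and the Krt8 values did. Each sequence runs 5′ to 3′ from 250 bases before the RefSeq start to 50 bases after it, in GRCm38.p6. Krt18 is read from the plus strand of chr15:102027966-102028265 and Krt8 from the minus strand of chr15:102004293-102004592.
Krt18: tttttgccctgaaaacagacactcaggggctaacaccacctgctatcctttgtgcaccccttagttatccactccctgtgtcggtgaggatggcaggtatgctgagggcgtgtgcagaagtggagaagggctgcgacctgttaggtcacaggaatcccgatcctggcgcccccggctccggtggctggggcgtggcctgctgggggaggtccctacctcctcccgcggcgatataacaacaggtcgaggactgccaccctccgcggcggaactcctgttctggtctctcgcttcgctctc
Krt8: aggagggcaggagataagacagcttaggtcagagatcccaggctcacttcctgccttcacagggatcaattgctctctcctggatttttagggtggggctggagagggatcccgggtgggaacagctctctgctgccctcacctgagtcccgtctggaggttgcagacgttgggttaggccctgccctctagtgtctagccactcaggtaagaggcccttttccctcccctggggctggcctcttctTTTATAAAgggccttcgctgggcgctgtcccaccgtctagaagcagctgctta
Capitals mark matches to 3 motifs searched on both strands, namely the AP-1 motif TGANTCA, the GC box GGGCGG, which reads CCGCCC on the other strand, and the TATA box TATAAA, which reads TTTATA on the other strand. Krt8 held 2 TATA box matches, which overlap across strands and lie at the annotated start, and Krt18 held none of the 3 motifs in this window. Among 32851 promoters of the same length, 13.6% held the TATA box letters, 35.7% the GC box letters and 7.81% the AP-1 letters.

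Arrays 1 and 2 of the MMS-treated knock-out group stood apart in transcripts other than the bile duct markers. Albumin (Alb), the main secretory product of hepatocytes, read 14.2 to 14.6 on all 12 arrays. Transcripts of pancreatic acinar cells were highest on MMS-treated knock-out array 1, which held the highest value of 14 of the 17 pancreatic genes measured. The mean log2 value of those 17 genes was 6.22 to 9.03 in the MMS-treated knock-out livers, 5.92 to 6.43 in untreated knock-out livers, 5.69 to 7.37 in MMS-treated wild-type livers and 5.86 to 6.27 in untreated wild-type livers. MMS-treated knock-out array 2 held the highest value of 6 of 9 genes of intestinal and gallbladder epithelium. The mean of those 9 genes was 6.62 to 7.85 in MMS-treated knock-out livers, 6.78 to 7.04 in untreated knock-out livers, 6.62 to 6.90 in MMS-treated wild-type livers and 6.72 to 6.85 in untreated wild-type livers. Array 2 was not highest in that list alone. It was highest for 7 of 14 macrophage, 5 of 14 hepatocyte, 5 of 14 stellate cell and 5 of 12 endothelial genes. It was also highest for 7 of 24 cholangiocyte genes other than the members, but for 0 of 10 lymphocyte and 0 of 7 mesothelial genes. The gap between the 5′ and 3′ control probe sets of actin and Gapdh, often read as a sign of RNA quality, was also smallest on arrays 1 and 2 of this group. It was -1.61 and -1.51 log2 on MMS-treated knock-out arrays 1 and 2, and -2.66 to -2.001 on the other 10 arrays. Differences that moved most without arrays 1 and 2 are given with and without them. The values without them are sizes only, since 1 MMS-treated knock-out array then remains.

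**Figure D1:**
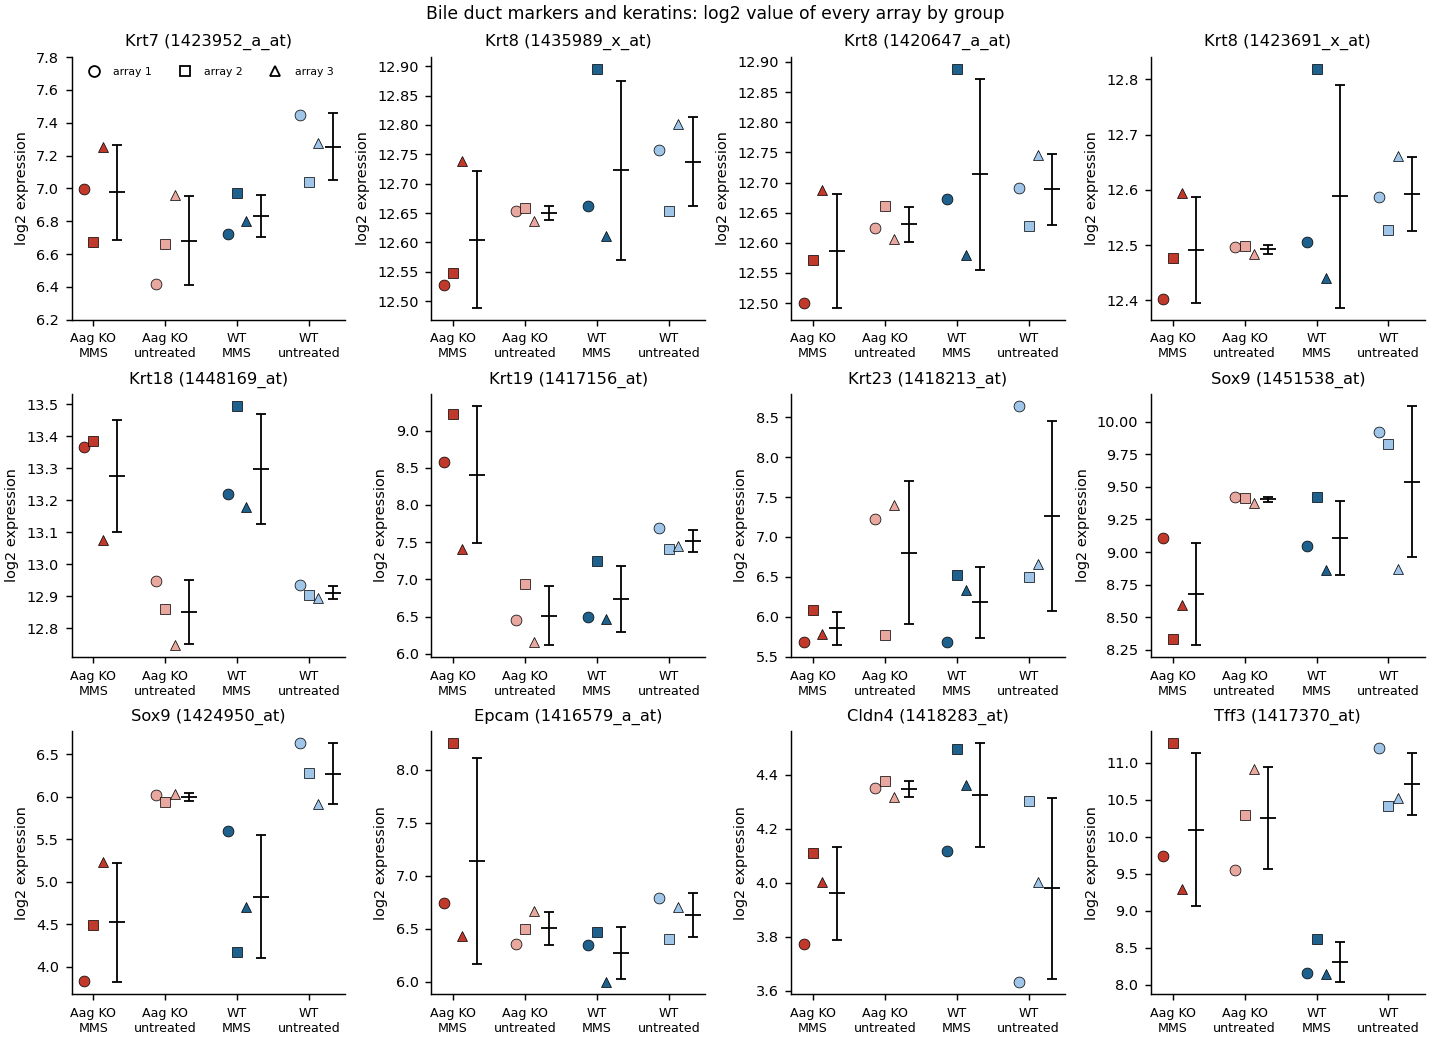
Log2 expression of each of the 12 member probe sets (vertical axis, a separate scale in each panel) on every array, with circles, squares and triangles for arrays 1, 2 and 3 and bars for the group mean and SD (n = 3). Krt19 was higher in all 3 MMS-treated knock-out livers than in any untreated knock-out liver, and Tff3 was lower in all 3 MMS-treated wild-type livers than in any untreated wild-type liver.

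In knock-out liver, Krt19 rose after MMS and no other member passed the threshold. That is 1 of 12 member probe sets, against 1.51% of all probe sets called in this comparison and 0.747% called higher. In wild-type liver, Tff3 and 1 of the 2 Sox9 probe sets fell after MMS and none rose. That is 2 of 12, against 6.44% of all probe sets called and 4.45% called lower. A call is an adjusted p under 0.05 in limma, with the Benjamini-Hochberg adjustment over all 22626 probe sets. Before adjustment, 5 member probe sets (both Sox9 probe sets among them) had p under 0.05 in knock-out liver and 4 in wild-type liver. The share of all probe sets at that level was not counted, here or in the comparisons below, so these counts have no background. With 1 probe set per gene, the median change of the 9 genes was -0.04 in knock-out liver, against -0.06 for all probe sets. It was -0.42 in wild-type liver, against -0.05 for all probe sets, whose interquartile range was -0.31 to 0.18.

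**Figure D2:**
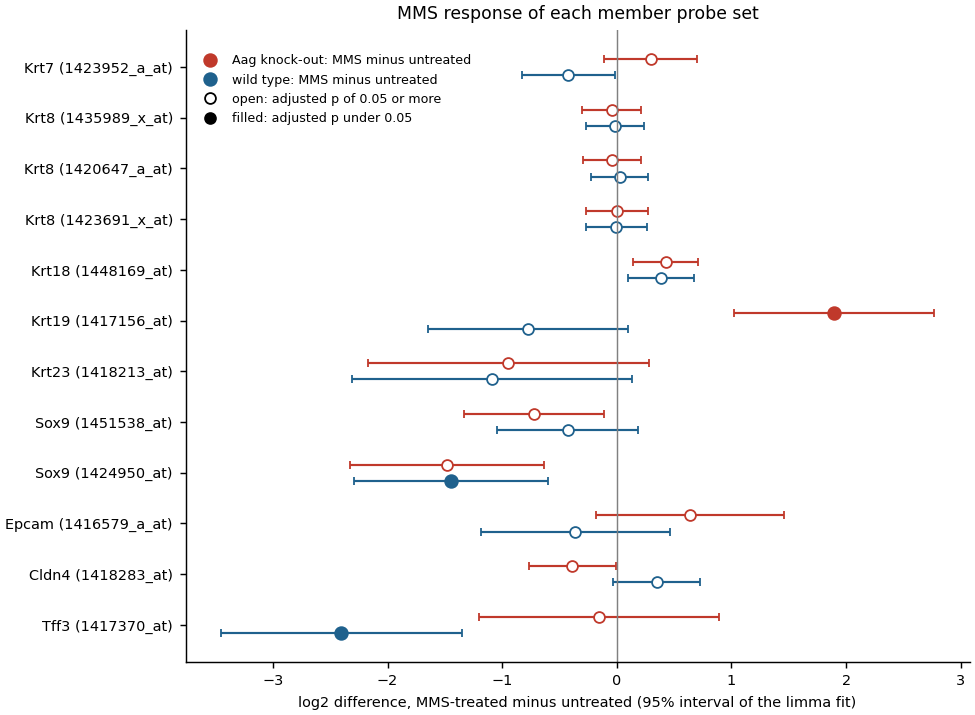
Log2 difference between MMS-treated and untreated livers for each member probe set, in Aag knock-out (red) and wild-type (blue) mice, with the 95% interval of the limma fit. Filled points passed the adjusted threshold: Krt19 in knock-out liver, and Tff3 and the dimmer Sox9 probe set in wild-type liver.

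Krt19, the type I keratin used most often to mark bile ducts, had log2 values of 8.58, 9.23 and 7.41 in MMS-treated knock-out livers, against 6.45, 6.94 and 6.15 in untreated knock-out livers. The groups did not overlap, and the lowest treated liver was array 3. The difference was 1.90 ± 0.40 log2 (SE), or 3.72-fold, with a 95% interval of 1.03 to 2.77 and an adjusted p of 0.0472. In wild-type mice the order was the opposite, with 6.49, 7.24 and 6.47 in MMS-treated livers, against 7.69, 7.41 and 7.45 in untreated livers. These groups did not overlap either, but the difference of -0.78 ± 0.40 had an adjusted p of 0.270. Without MMS-treated knock-out arrays 1 and 2, the knock-out difference was 0.90. With the 5′ to 3′ control value as a covariate it was 1.05 (adjusted p = 0.411). In that covariate fit 0 of all probe sets were called in knock-out liver, so the lost call is not particular to Krt19. The call was also lost in 9 of the 12 fits that left out 1 array, namely without MMS-treated knock-out array 1 or 2, any untreated knock-out array, MMS-treated wild-type array 3 or any untreated wild-type array. The adjusted p across the 12 fits ran between 0.0063 and 0.194 and the difference between 1.49 and 2.39. Most of these losses went with few calls on the whole array, against 341 with every array. Of all probe sets, 0 were called without MMS-treated knock-out array 1 or 2 or untreated knock-out array 1. Without untreated knock-out array 2, 1 was called, and without any 1 of the named wild-type arrays 13 to 69. Without untreated knock-out array 3, 812 were called. Of the 2 arrays highest in Krt19, array 1 was also the highest in the pancreatic list and array 2 in the intestinal list. Reg1 and Zg16, from the pancreatic list, were highest on both (9.85 and 10.97 for Reg1, 10.46 and 11.36 for Zg16, against at most 7.71 and 8.66 on the other 10 arrays). After MMS-treated knock-out array 1, the next highest mean of the pancreatic list was 7.37, on MMS-treated wild-type array 1, where Krt19 read 6.49. On MMS-treated knock-out array 2 that mean was 6.64. The part of these transcripts in the rise of Krt19 was not tested.

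Krt18, the type I partner of Krt8, read 13.37, 13.38 and 13.08 in MMS-treated knock-out livers, against 12.95, 12.86 and 12.75 in untreated knock-out livers. It read 13.22, 13.49 and 13.18 in MMS-treated wild-type livers, against 12.93, 12.90 and 12.89 in untreated wild-type livers. All 6 treated livers were above all 6 untreated livers. The differences were 0.42 ± 0.13 in knock-out liver (adjusted p = 0.0917) and 0.39 ± 0.13 in wild-type liver (adjusted p = 0.104), so neither passed the threshold. A trended robust variance put both past it (adjusted p = 0.0389 and 0.0369). In knock-out liver that fit called 1029 of all probe sets, against 341 in the main fit. Without MMS-treated knock-out arrays 1 and 2 the knock-out difference of Krt18 was 0.22. Krt18 was 1 of 2 member probe sets higher without overlap in knock-out liver, against 12.9% of all probe sets, and the 1 that was so in wild-type liver, against 11.3%.

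Krt8, the type II partner, stayed within a narrow band on its 3 probe sets, from 12.40 to 12.90 over all arrays. The probe set with the highest mean read 12.53, 12.55 and 12.74 in MMS-treated knock-out livers, against 12.65, 12.66 and 12.64 in untreated knock-out livers. In wild-type mice it read 12.66, 12.90 and 12.61 after MMS, against 12.76, 12.65 and 12.80 without it. The groups overlapped in both genotypes. The differences were -0.04 ± 0.12 in knock-out liver and -0.01 ± 0.12 in wild-type liver, with 95% intervals of -0.30 to 0.21 and -0.27 to 0.24. The 3 Krt8 probe sets followed each other across the 12 arrays (Pearson's r of 0.955 to 0.966 between pairs, as a description).

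Krt7, the type II keratin of bile ducts, read 6.997, 6.68 and 7.25 in MMS-treated knock-out livers, against 6.42, 6.66 and 6.96 in untreated knock-out livers, which overlap. It read 6.72, 6.97 and 6.80 in MMS-treated wild-type livers, against 7.45, 7.04 and 7.28 in untreated wild-type livers, which do not. The difference was 0.29 ± 0.19 in knock-out liver (adjusted p = 0.349) and -0.42 ± 0.19 in wild-type liver (adjusted p = 0.202). Krt7 and Krt19 thus had opposite signs in the 2 genotypes, and of these 4 differences the Krt19 difference in knock-out liver was the called one. Krt23, a type I keratin of bile ducts and stressed liver, varied widely among untreated livers. It read 5.69, 6.09 and 5.79 in MMS-treated knock-out livers, against 7.23, 5.77 and 7.40 in untreated knock-out livers. It read 5.68, 6.53 and 6.33 in MMS-treated wild-type livers, against 8.64, 6.49 and 6.67 in untreated wild-type livers. All treated means were lower, with overlap, and the differences of -0.95 ± 0.56 and -1.09 ± 0.56 in knock-out and wild-type liver had adjusted p of 0.315 and 0.272.

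Sox9 was lower after MMS in both genotypes by both probe sets, with 1 of the 4 differences past the threshold. The brighter probe set read 9.11, 8.34 and 8.60 in MMS-treated knock-out livers, against 9.42, 9.41 and 9.38 in untreated knock-out livers. In wild-type mice it read 9.05, 9.42 and 8.86 after MMS, against 9.92, 9.83 and 8.87 without it. The knock-out groups did not overlap and the wild-type groups did. The dimmer probe set read 3.83, 4.495 and 5.24 in MMS-treated knock-out livers, against 6.02, 5.94 and 6.03 in untreated knock-out livers. It read 5.60, 4.17 and 4.70 in MMS-treated wild-type livers, against 6.63, 6.28 and 5.91 in untreated wild-type livers. By this probe set neither pair of groups overlapped.

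At the dimmer probe set the Sox9 difference was -1.45 ± 0.38 in wild-type liver, with an adjusted p of 0.0495. In knock-out liver it was -1.48 ± 0.38, with an adjusted p of 0.0673. Without MMS-treated knock-out arrays 1 and 2 the knock-out difference was -0.76. With the 5′ to 3′ control value as a covariate it was -0.63 (adjusted p = 0.596), in a fit that called 0 of all probe sets in knock-out liver. No detection call came with the values, so signal at this dim probe set could not be told from absent signal. At the brighter probe set the differences were -0.72 ± 0.28 in knock-out liver (adjusted p = 0.145) and -0.43 ± 0.28 in wild-type liver (adjusted p = 0.388). The 2 probe sets correlated at 0.553 over the 12 arrays, so they tracked each other less closely than the Krt8 probe sets did. The wild-type call was lost in 9 of the 12 fits without 1 array, with adjusted p of up to 0.175. Those were the fits without MMS-treated knock-out array 2, any untreated knock-out array, MMS-treated wild-type array 2 or 3, or any untreated wild-type array, and the difference ran between -1.84 and -1.12. The call was also lost with each array centred on its median (adjusted p = 0.0768) and with the spread of the wild-type groups alone (adjusted p = 0.0644). Averaged over the 2 probe sets, the differences were -0.94 in wild-type liver (adjusted p = 0.0324) and -1.10 in knock-out liver (adjusted p = 0.0476). Both passed, in a fit that called 1044 genes in wild-type liver and 177 in knock-out liver, and the average includes the dim probe set.

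Epcam, an adhesion molecule of bile duct and progenitor cells, was high on 1 array. It read 6.74, 8.25 and 6.43 in MMS-treated knock-out livers, against 6.36, 6.49 and 6.66 in untreated knock-out livers. In wild-type livers it read 6.35, 6.47 and 6.00 after MMS, against 6.79, 6.40 and 6.71 without it. The groups overlapped in both genotypes, and the differences were 0.64 ± 0.37 in knock-out liver (adjusted p = 0.314) and -0.36 ± 0.37 in wild-type liver (adjusted p = 0.602). The high value was that of MMS-treated knock-out array 2. On the same array the mucous cell genes Tff2 and Agr2 read 11.6 and 9.32, against 6.09 to 6.999 and 4.10 to 5.10 on the other 11 arrays. Muc13, a membrane mucin, read 8.82 there against 5.69 to 6.31 elsewhere, and Vil1, an actin-bundling protein of intestinal microvilli, read 8.37 against 4.87 to 6.79. Of the 8 trefoil and mucin genes measured besides Tff3, the 3 highest on this array were Tff2, Agr2 and Muc13. The others were highest on other arrays. Without arrays 1 and 2 the Epcam difference in knock-out liver was -0.07.

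**Figure D3:**
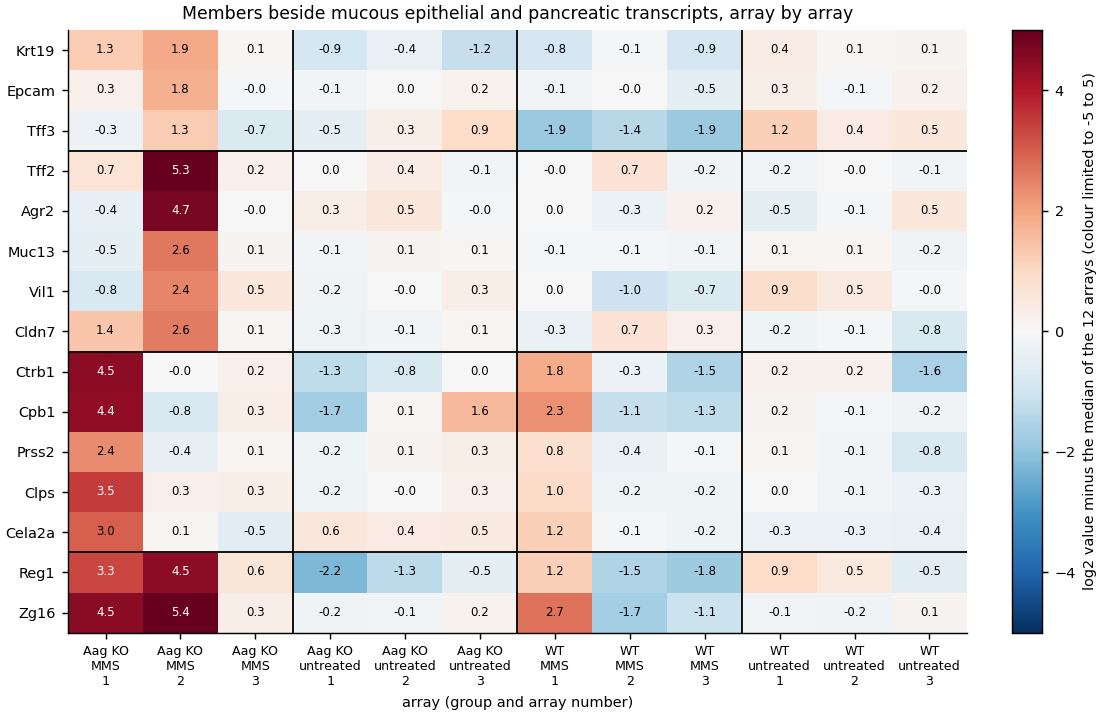
Log2 value of Krt19, Epcam and Tff3 (top), mucous and intestinal epithelial genes (middle), pancreatic acinar genes, and Reg1 and Zg16 (bottom) on each array, as the difference from that gene's median over the 12 arrays. MMS-treated knock-out array 1 was high for the pancreatic genes shown and array 2 for the mucous genes shown, and Krt19 was high on both. The mucous and pancreatic genes shown were chosen after their values were seen. Array 2 was the highest for 3 of 8 trefoil and mucin genes.

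Cldn4, a tight junction protein, gave the lowest readings of the set, and no detection call came with the values. It read 3.77, 4.11 and 4.004 in MMS-treated knock-out livers, against 4.35, 4.38 and 4.32 in untreated knock-out livers. It read 4.12, 4.496 and 4.36 in MMS-treated wild-type livers, against 3.63, 4.30 and 4.002 in untreated wild-type livers. The knock-out groups did not overlap and the wild-type groups did, with differences of -0.39 ± 0.17 (adjusted p = 0.197) and 0.35 ± 0.17 (adjusted p = 0.262). Cldn4 and the 2 Sox9 probe sets were the 3 members lower without overlap in knock-out liver, against 13.8% of all probe sets.

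Tff3, the trefoil peptide gene, fell in wild-type liver. It read 8.16, 8.62 and 8.14 in MMS-treated wild-type livers, against 11.19, 10.41 and 10.53 in untreated wild-type livers. The groups lay far apart, and the difference was -2.40 ± 0.48 log2, or 5.29-fold lower, with a 95% interval of -3.45 to -1.35 and an adjusted p of 0.0179. In knock-out mice it read 9.73, 11.26 and 9.29 after MMS, against 9.55, 10.29 and 10.92 without it. These groups overlapped, and the difference was -0.16 ± 0.48 (adjusted p = 0.861). The highest knock-out value was again that of MMS-treated array 2, and without arrays 1 and 2 the knock-out difference was -0.96. The wild-type call was lost in 4 of 12 fits, those without MMS-treated wild-type array 1 (adjusted p = 0.0529), MMS-treated wild-type array 3 (0.0545), untreated wild-type array 1 (0.0848) or untreated wild-type array 3 (0.0571). The difference ran between -2.56 and -2.16 over the 12 fits. Tff3, Krt7, Krt19 and 1 Sox9 probe set were the 4 members lower without overlap in wild-type liver, against 20.5% of all probe sets.

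Between genotypes under MMS, no member passed the threshold. That is 0 of 12, against 0.0177% of all probe sets. Before adjustment, 3 members had p under 0.05 in limma (Krt19, Epcam and Tff3), with no share of all probe sets counted. Krt19 was 1.67 ± 0.40 higher in MMS-treated knock-out than in MMS-treated wild-type livers (adjusted p = 0.109), and Tff3 was 1.79 ± 0.48 higher (adjusted p = 0.126). Both were higher without overlap, as were 9.92% of all probe sets, and without MMS-treated knock-out arrays 1 and 2 the differences were 0.68 for Krt19 and 0.98 for Tff3. Epcam differed by 0.87 ± 0.37 (adjusted p = 0.250) with overlap, and by 0.16 without these arrays. Cldn4 differed by -0.36 ± 0.17 (adjusted p = 0.294) and was the member lower without overlap, against 7.71% of all probe sets.

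In untreated livers no member differed between genotypes past the threshold either, 0 of 12 against 0.0398% of all probe sets. Before adjustment, 2 had p under 0.05 in limma (Krt7 and Krt19), with no share of all probe sets counted. Krt19 was -0.9996 ± 0.3952 in untreated knock-out relative to untreated wild-type livers (adjusted p = 0.609) and Krt7 was -0.57 ± 0.19 (adjusted p = 0.532). Krt7, Krt19 and 1 Krt8 probe set were lower without overlap, against 10.8% of all probe sets, and Cldn4 was higher without overlap, against 7.52%.

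The MMS response in knock-out minus that in wild-type liver tests whether the genotypes responded differently. No member passed this test, 0 of 12 against 0.0% of all probe sets. Before adjustment, 4 had p under 0.05 in limma (Krt7, Krt19, Cldn4 and Tff3), with no share of all probe sets counted. The differences of responses were 2.67 ± 0.56 for Krt19 (adjusted p = 0.103), 2.25 ± 0.67 for Tff3 (adjusted p = 0.164), 0.72 ± 0.26 for Krt7 (adjusted p = 0.212), 1.00 ± 0.53 for Epcam (adjusted p = 0.347) and -0.73 ± 0.25 for Cldn4 (adjusted p = 0.192). Without MMS-treated knock-out arrays 1 and 2 they were 1.68 for Krt19, 1.44 for Tff3 and 0.29 for Epcam. Without array 2 alone the value of Epcam was 0.44. The call of Krt19 in knock-out liver and that of Tff3 in wild-type liver are therefore not shown to differ from the other genotype at this threshold.

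Of 24 other cholangiocyte genes measured, 5 fell after MMS in wild-type liver and none rose, against 5.33% of 12393 genes called lower there and 7.53% called in all. In knock-out liver 0 of the 24 passed, against 1.7% of genes. Their median change was -0.37 in wild-type liver and 0.04 in knock-out liver. Pkhd1, the fibrocystin gene of the bile duct cilium, read 6.03, 6.13 and 6.06 in MMS-treated wild-type livers, against 8.53, 7.53 and 8.34 in untreated wild-type livers. The difference of -2.06 ± 0.23 was 4.16-fold lower (adjusted p = 0.00217). Cdh1, the epithelial cadherin that hepatocytes near the portal tract also make, was -1.27 ± 0.14 (adjusted p = 0.00217). Prom1, a surface marker of progenitor and bile duct cells, was -1.16 ± 0.20 (adjusted p = 0.00991). Atp1b1, a subunit of the sodium pump found in many cells, was -0.99 ± 0.15 (adjusted p = 0.00632). The calls of these 4 genes held in all 12 fits without 1 array. Ehf, an epithelial transcription factor, was -1.15 ± 0.25 (adjusted p = 0.0249). Its call was lost in 5 of the 12 fits, without MMS-treated wild-type array 2 or 3 or any untreated wild-type array, with adjusted p of up to 0.0997. Averaged over a gene's probe sets, the differences were smaller for Ehf (-0.34, adjusted p = 0.442) and Atp1b1 (-0.51, adjusted p = 0.0302).

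In knock-out liver Pkhd1 read 6.60, 6.47 and 6.51 after MMS, against 7.64, 7.21 and 7.79 without it, a difference of -1.02 ± 0.23 (adjusted p = 0.0547). The groups did not overlap, but the difference missed the threshold. Prom1 and Atp1b1 differed there by 0.06 ± 0.20 and -0.05 ± 0.15. Dmbt1, a secreted scavenger protein of ducts and mucosae, had the largest difference of the 24 genes in knock-out liver, 3.48 ± 1.01 (adjusted p = 0.0831). It read 11.35, 9.91 and 10.29 in MMS-treated knock-out livers, against 7.04, 9.25 and 4.82 in untreated knock-out livers. The untreated livers lay far apart from each other.

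**Figure D4:**
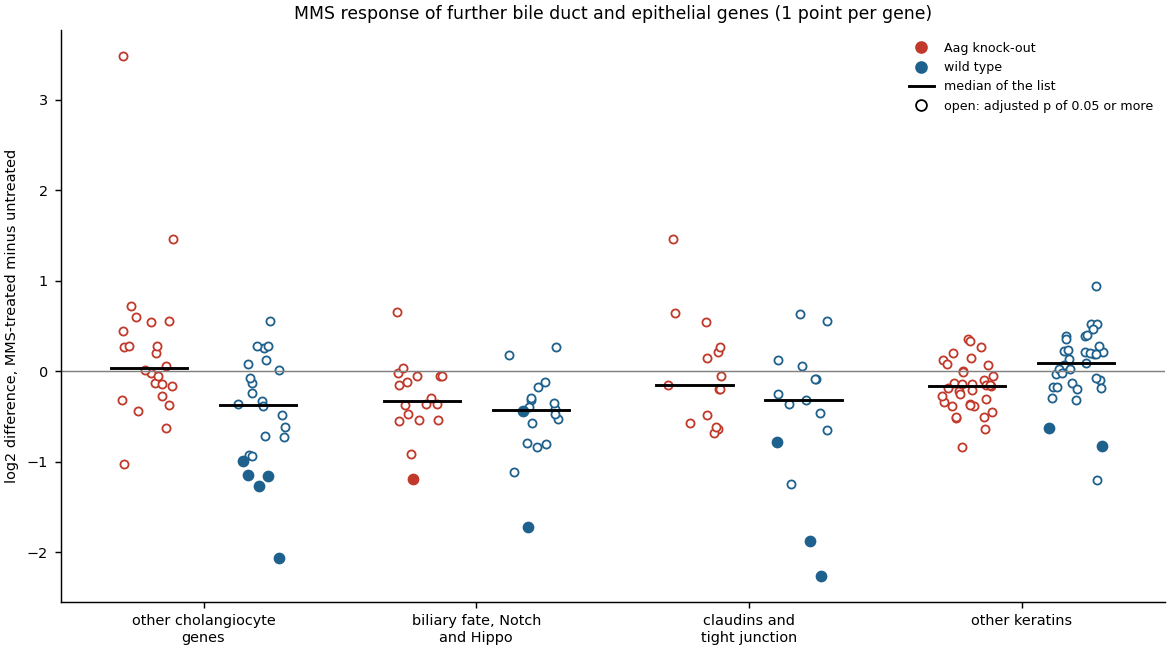
Log2 difference between MMS-treated and untreated livers for the measured genes of 4 lists (1 point per gene, scattered sideways for legibility), in Aag knock-out (red) and wild-type (blue) mice, with filled points past the adjusted threshold and bars at the list medians. In wild-type liver 5 of 24 other cholangiocyte genes and 3 of 15 tight junction genes were called, all lower.

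Among 18 genes of biliary fate and of Notch and Hippo signalling, 1 fell in knock-out liver, against 1.7% of all genes called in either direction, and 2 fell in wild-type liver, against 5.33% of all genes called lower. None rose. Sox4, a transcription factor that acts with Sox9 in bile duct development in mice, read 6.32, 6.37 and 5.76 in MMS-treated knock-out livers, against 7.32, 7.12 and 7.56 in untreated knock-out livers. It read 5.98, 6.19 and 5.87 in MMS-treated wild-type livers, against 7.55, 7.55 and 8.10 in untreated wild-type livers. The groups did not overlap in either genotype, with differences of -1.18 ± 0.21 in knock-out liver (adjusted p = 0.0333) and -1.72 ± 0.21 in wild-type liver (adjusted p = 0.00303). The wild-type call held in all 12 fits without 1 array. The knock-out call was lost in 8 of them (all but those without MMS-treated knock-out array 3, untreated knock-out array 3, or MMS-treated wild-type array 1 or 2), with adjusted p of up to 0.149. In those 8 fits 0 to 69 of all probe sets were called in knock-out liver, against 341 with every array. Notch2, the receptor whose loss impairs bile duct formation in mice, was -0.43 ± 0.12 in wild-type liver (adjusted p = 0.0498), a call lost in 11 of 12 fits. Averaged over the Sox4 probe sets, the differences were -0.55 in knock-out liver (adjusted p = 0.0515) and -0.45 in wild-type liver (adjusted p = 0.0610), so neither passed. Without MMS-treated knock-out arrays 1 and 2 the knock-out difference of Sox4 was -1.57. The medians of the list were -0.33 in knock-out liver and -0.43 in wild-type liver.

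Of 15 claudins and other tight junction genes besides Cldn4, 3 fell in wild-type liver, against 5.33% of all genes, and none passed in knock-out liver, against 1.7%. The medians were -0.32 in wild-type liver and -0.15 in knock-out liver. Cldn1 read 8.79, 8.60 and 8.64 in MMS-treated wild-type livers, against 11.07, 10.89 and 10.84 in untreated wild-type livers. The groups lay apart by -2.26 ± 0.36, or 4.78-fold lower (adjusted p = 0.00718, and -1.11 as the mean of its probe sets), while in knock-out liver Cldn1 differed by -0.57 ± 0.36 (adjusted p = 0.346). Tjp3, a scaffold of tight junctions, was -1.87 ± 0.26 in wild-type liver (adjusted p = 0.00457), and both calls held in all 12 fits. Cxadr, an adhesion protein of epithelial junctions, was -0.78 ± 0.20 (adjusted p = 0.0424), a call lost in 6 of 12 fits and with each array centred on its median (adjusted p = 0.137).

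Of 35 other keratins, 0 passed in knock-out liver and 2 passed in wild-type liver, both lower. Of all genes, 5.33% were called lower in wild-type liver, so the share of keratins was near the background, and 1.7% were called in knock-out liver. The medians were -0.16 in knock-out liver and 0.09 in wild-type liver. Krt10, a keratin of stratified epithelia, read 7.36, 7.60 and 7.25 in MMS-treated wild-type livers, against 8.19, 7.88 and 8.02 in untreated wild-type livers, a difference of -0.63 ± 0.14 (adjusted p = 0.0251). Krt33a, a hair keratin, was -0.82 ± 0.18 (adjusted p = 0.0242). The calls were lost in 4 and 6 of 12 fits, and both were lost with each array centred on its median (adjusted p = 0.0921 and 0.0565). In either genotype 0 of 17 genes of desmosomes, plakins and other intermediate filaments passed, and 0 of 8 other trefoil and mucin genes did. The closest were Dsc2, a desmosomal cadherin, with -0.79 ± 0.21 in wild-type liver (adjusted p = 0.0501) and Muc1, a membrane mucin, with -0.61 ± 0.18 in wild-type liver (adjusted p = 0.0749). Of 12 osteopontin receptors and relatives, Itga9 fell in both genotypes, by 1.08 on the log2 scale in knock-out liver and by 1.14 in wild-type liver. Itgb5 and Itga5 fell in wild-type liver (adjusted p = 0.0170 and 0.0135), calls lost in 2 and 1 of 12 fits. Averaged over its probe sets, Itga5 did not pass (-0.41, adjusted p = 0.0939). The knock-out call of Itga9 was lost in 8 of 12 fits, in which 0 to 69 of all probe sets were called. Without MMS-treated knock-out arrays 1 and 2 its knock-out difference was -0.86.

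Markers of other cells that carry keratins or sit beside bile ducts moved in the same livers. The mean log2 value of 7 mesothelial genes, whose cells also make Krt7, Krt8, Krt18 and Krt19, was 5.77 to 5.94 in MMS-treated knock-out livers, 6.17 to 6.69 in untreated knock-out livers, 5.90 to 6.03 in MMS-treated wild-type livers and 6.45 to 6.60 in untreated wild-type livers. Of these 7, Gpm6a was called, lower in both genotypes. Its knock-out call was lost in 7 of 12 fits, in which 0 to 35 of all probe sets were called. Without MMS-treated knock-out arrays 1 and 2 its knock-out difference was -1.83, against -1.91 with them. In wild-type liver 4 of 14 stellate cell genes and 5 of 12 endothelial genes were also called lower after MMS, against 5.33% of all genes. In knock-out liver 0 of either list was called, against 1.7% of all genes. Of 10 lymphocyte genes, Cd3e and Cd79b were called lower in wild-type liver. Of 9 neutrophil genes, S100a8 and S100a9 were called higher there. Of 14 macrophage genes, Marco was called higher and Adgre1 lower. In wild-type liver 7.53% of all genes were called in either direction. No gene of these 3 lists was called in knock-out liver. Of 14 hepatocyte genes, G6pc was called lower in wild-type liver, and the list mean was 13.37 to 13.63 in MMS-treated wild-type livers, against 13.60 to 13.65 in untreated wild-type livers. The part of these cells in the bile duct gene values was not tested. No gene of any list named here passed between genotypes under MMS, between untreated genotypes or in the difference of responses, against 0.0161%, 0.0484% and 0.0% of all genes in these 3 comparisons.

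Over the 12 arrays, the genes whose values correlated most closely with each member are given as a description, since all of them share the same arrays and groups. For Krt19 they were St6galnac6, Isoc2b and Mrpl22 (Pearson's r of 0.949, 0.946 and 0.939). For Tff3 they were Serpinb1a, Hspg2 and Nat8f1 (0.952, 0.948 and 0.907), and for Epcam Fcgbp, Tff2 and Mgst2 (0.932, 0.914 and 0.905). Of the 3 genes closest to Epcam, Tff2 was the one that read 11.6 on MMS-treated knock-out array 2. For Krt18 they were Mx2, Ddx50 and Ppp1r11 (0.944, 0.943 and 0.939), and for Krt7 Rbm4b, Bud23 and Eef1akmt1 (0.949, 0.898 and 0.892). For Krt8 the highest was 0.905 (Thoc6), for Sox9 0.899 (Rps2), for Cldn4 0.888 (2310050C09Rik) and for Krt23 0.856 (Caprin2). Members were left out of the genes searched, so correlations between member genes are not given here.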

How the data were processed

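The deposited table holds log2 expression values by probe set for every array. Per the submitters' processing notes, the authors made these log2 values with RMA, which corrects background, normalizes and summarises probe sets. Such values hide a shift common to the whole array. For the RMA version and the set of arrays normalized jointly, nothing is given in the sources used here. The base of the logarithm was inferred from the usual output of RMA and the range of the values, and no detection call was available. Array medians ran between 7.42 and 7.75. Columns were matched to samples by name. Of 22690 probe sets, 64 controls were set aside. Names came from the platform annotation (20380 with 1 symbol, 691 with several, 1555 with none), and 20351 symbols were updated by gene identifier through RefSeq (GRCm38.p6). Each listed gene was read from the probe set whose mean was highest. Promoters came from RefSeq, which had an entry for 7 of the 10 genes.

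limma 3.58.1 in R 4.3.3 fitted 1 mean per group to the 12 arrays (8 residual degrees of freedom), with 5 contrasts and Benjamini-Hochberg adjustment over 22626 probe sets at 0.05. The fit was tested on simulated data. The titles name each replicate as a separate animal. The members, lists and alternatives were chosen with earlier results of these data known. All members are named, and of other lists mainly the genes past the threshold, or those with the smallest p where none passed. Dmbt1 and the mucous and pancreatic genes set beside Epcam were chosen after their values were seen. Alternatives were further quantile normalization, median centring, 2 filters on low values, a trended robust variance, array weights, a replicate block, leaving out arrays, averaged probe sets per gene, the compared groups alone and the 5′ to 3′ control value as a covariate. The fit without MMS-treated knock-out arrays 1 and 2 was added after seeing the data. The files carry no scan date. Same-numbered arrays of different groups deviated from their group means with correlations of -0.475 to 0.403 (18 pairs), so the numbers were not taken to pair animals.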

Additional observations from a re-analysis of the deposited data

Results flagged for a closer look

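Krt19 stood out because its groups moved in opposite directions. All 3 MMS-treated knock-out livers read above all untreated knock-out livers, and all 3 MMS-treated wild-type livers read below all untreated wild-type livers. The difference of the responses was 2.67 ± 0.56 log2 (SE), and in limma its adjusted p was 0.103, so the test of the difference did not pass the threshold. Without MMS-treated knock-out arrays 1 and 2 it was 1.68, and with array weights it was 2.97 (adjusted p = 0.0144). With array weights 2344 of all 22626 probe sets passed this test, against 0 in the main fit, so passing there is not particular to Krt19.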

How the results depend on the processing

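Of 1159 recomputed changes of the named genes, 1000 kept their direction and their side of the threshold, 116 kept the direction but lost the threshold, 29 gained it and 14 changed sign. Many could not change in size, since several alternatives change only the spread or leave out arrays outside the compared groups. The total pools called and uncalled changes, and only called ones could lose the threshold, so the 1000 do not measure stability. The sign changes all concerned changes that were not called. Krt8 in knock-out liver was 0.0888 without MMS-treated knock-out arrays 1 and 2. Krt8 in wild-type liver was 0.0055 after further quantile normalization, 0.18 with median centring and 0.0023 as the mean of its probe sets, and ran between -0.101 and 0.0412 without 1 array. Epcam in knock-out liver was -0.0722 without arrays 1 and 2 and -0.0343 with the 5′ to 3′ covariate. Tff3 in knock-out liver was 0.12 with array weights, 0.58 without the 2 knock-out arrays numbered 3, and ran between -0.74 and 0.25 without 1 array. The causes were not tested.

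Counts in brackets, where given, are calls among all 22626 probe sets. The number of member probe sets called in the knock-out response, 1 of 12 (341), became 3 with a trended robust variance (1029) or array weights (5790). It became 2 without the 2 knock-out arrays numbered 3 (3326) or with averaged probe sets per gene (177 of 12393 genes). It became 0 with the replicate block (19), the compared groups alone (0) or the covariate (0). It ran between 0 and 3 without 1 array. In the wild-type response, 2 of 12 (1458) became 5 with array weights (4873), so the rise went with more calls on the whole array. The number became 1 under either filter on low values (which removes the dim Sox9 probe set), the replicate block or the compared groups alone. It ran between 0 and 2 without 1 array (274 to 1798). Between genotypes under MMS, 0 (4) became 2 with array weights (1482) or without the 2 knock-out arrays numbered 3 (1353), and ran between 0 and 2 without 1 array. In the difference of responses, 0 (0) became 2 with the same 2 settings (2344 and 514) and ran between 0 and 1 without 1 array. Under the replicate block the adjusted p was 0.0549 for Krt19 in knock-out liver, 0.0286 for Tff3 in wild-type liver and 0.0706 for the dimmer Sox9 probe set in wild-type liver.

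The number of all probe sets called in the knock-out response, 341, ran between 0 and 3264 without 1 array and between 0 and 5790 under the other alternatives. In the wild-type response, 1458 ran between 274 and 1798 and between 1044 and 4873. Between genotypes, 4 under MMS ran between 3 and 1118 and between 3 and 1482, and 9 in untreated liver between 4 and 18 and between 3 and 182. In the difference of responses, 0 ran between 0 and 158 and between 0 and 2344. Only 3 arrays per group limit the precision, and dim probe sets such as Cldn4 and the dimmer Sox9 probe set could not be told from absent ones.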
